A study of Homo sapiens with 6 samples.

Results

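The 10 genes described here encode secreted or lipid-handling proteins that early endoderm, yolk sac and liver are known for: the apolipoproteins APOA1, APOA2, APOB, APOC1, APOE and APOM, the plasma proteins AFP (alpha-fetoprotein), TTR (transthyretin) and RBP4 (retinol-binding protein), and AMN (amnionless). They were chosen by name from a table of 58830 genes. Their RNA was measured by RNA-seq in definitive endoderm made from HuES8, an established human embryonic stem cell line. A group of 3 libraries, called DE, came from wild-type cells, and the other group of 3, called KD, came from cells in which the long noncoding RNA GATA6-AS1 had been knocked down. Both groups were taken through the same 3 day differentiation in DMEM-F12 containing 0.2% BSA, with 100 ng/mL Activin A throughout and 2.5 µM CHIR, which inhibits GSK3 and so turns on the Wnt pathway, on the first of those days. The means of knockdown and any control construct in the wild-type cells were not given in the sources used here. Values are TPM, which correct for the length of a gene and the size of its library, so levels can be compared between genes.

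Apolipoproteins are the protein parts of the particles that carry lipid between cells. APOB is the core of very low density and low density particles, APOA1 and APOA2 are the main proteins of high density lipoprotein (HDL), and APOE, APOC1 and APOM are exchanged between particles. In the embryo the visceral endoderm of the yolk sac makes these proteins before the liver does, together with AFP and with TTR and RBP4, which travel as a complex that carries retinol. AMN anchors the endocytic receptor cubilin at the surface of absorptive epithelia, visceral endoderm among them. Definitive endoderm, the tissue made here, is the precursor of gut and liver.

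The data bear out the apolipoprotein label for APOE and APOC1 and go against the visceral endoderm label for its best known products. AFP had an estimated 2, 1 and 0 reads in DE replicates 1 to 3 and 0, 1 and 0 in KD replicates 1 to 3, and TTR had 1, 1 and 2 in DE and 0 in each KD library, as rounded estimates. For TTR the estimate is less certain, since its steps did not fall on whole reads with the GENCODE 29 length. The genes are therefore described by name and level. The libraries held an estimated 18640821 to 24510594 reads, GATA6-AS1 averaged 374 ± 55.1 TPM over the DE and 157 ± 27.3 TPM over the KD libraries (SD, n = 3 each), and mitochondrial transcripts took 38.0% and 36.2% of TPM in the third replicates of DE and KD against 24.6% to 28.8% in the others. The endoderm markers SOX17 and FOXA2 stood at 551 and 127 TPM in DE. Nothing in the labels says that replicates were separate cultures, so p-values measure how these libraries scatter, part of which can be technical.

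The genes covered a wide range of levels in wild-type endoderm. APOE, a ligand of lipoprotein receptors, stood at 512 ± 20.6 TPM (SD, n = 3) and ranked 144 among the 58830 genes by mean TPM. APOC1, a small exchangeable apolipoprotein encoded next to it, came next with 46.6 ± 8.77 TPM. AMN with 6.53 ± 1.46 TPM and APOA2 with 5.47 ± 1.06 TPM followed, with overlapping ranges, although AMN was the higher in each DE library. APOM had 2.12 ± 0.380 TPM and APOA1 1.05 ± 0.159 TPM, without overlap. RBP4, APOB, TTR and AFP had means below 1 TPM and overlapped in their ranges. APOE made up 87.4% to 92.2% of the summed TPM of the 10 genes in every library, and APOE with APOC1 96.9% to 98.1%. The sum itself was 562, 579 and 581 TPM in DE replicates 1 to 3 and 417, 415 and 404 TPM in KD replicates 1 to 3. In KD the order differed in its lower part: APOM at 2.03 ± 0.278 TPM overlapped APOA2 at 1.73 ± 0.129 TPM, and the mean of RBP4 was above that of APOA1, with overlapping libraries.

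**Figure D1:**
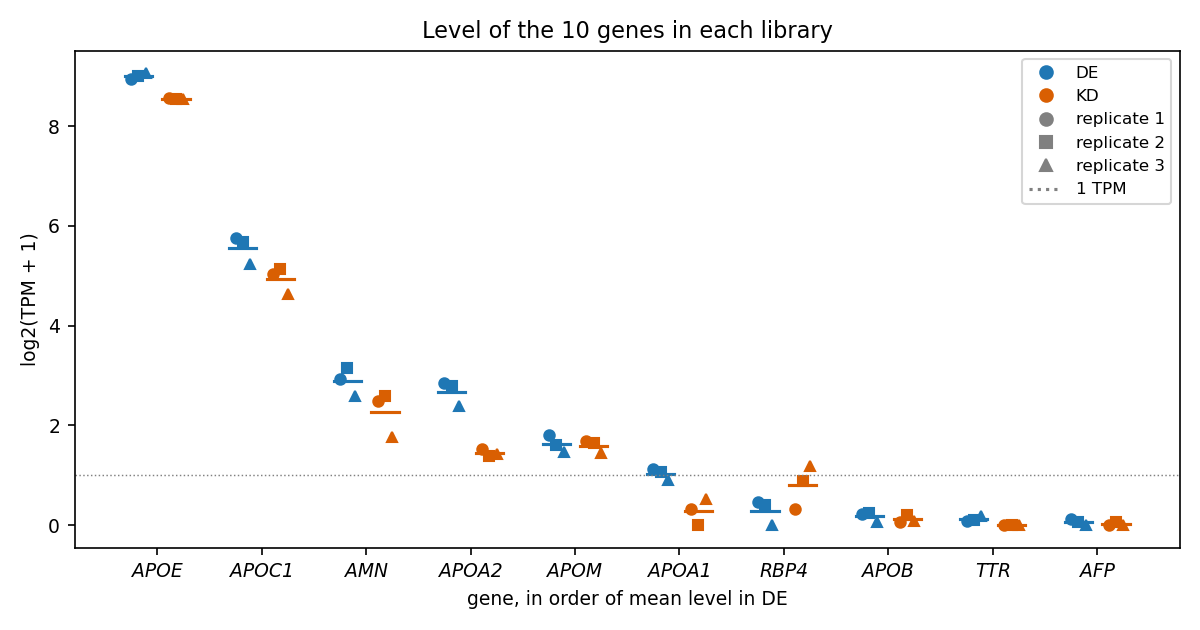
Level of the 10 genes in each library, as log2(TPM + 1), in order of the DE mean; points are libraries, marker shapes are replicate numbers, bars are group means and the dotted line marks 1 TPM. APOE lies far above the others, and AFP and TTR lie at or near 0 in all 6 libraries.

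Promoter sequence was taken from RefSeq on GRCh38.p14, from 250 bases before to 50 bases after each RefSeq start of a gene. Of the 10 genes 7 matched, with 11 windows in all. Those not matched were APOA1, APOB and TTR. The windows are shown for APOA2 and APOC1, which were lower in every KD library, for AMN, whose group means differed but whose libraries overlapped, and for AFP, which had almost no reads. They lie at chr1:161223579-161223878 (minus strand) for APOA2, chr19:44914422-44914721 (plus) for APOC1, chr14:102922413-102922712 (plus) for AMN and chr4:73435971-73436270 (plus) for AFP. Each is printed 5′ to 3′ on the strand of its gene, with capitals marking the motif matches described in the next paragraph.
APOA2: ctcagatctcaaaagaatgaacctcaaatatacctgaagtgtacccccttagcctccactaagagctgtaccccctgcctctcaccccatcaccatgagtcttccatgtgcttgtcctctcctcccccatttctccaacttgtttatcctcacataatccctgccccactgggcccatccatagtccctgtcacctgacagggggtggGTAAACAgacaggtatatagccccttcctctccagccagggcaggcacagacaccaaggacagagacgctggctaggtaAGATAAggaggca
APOC1: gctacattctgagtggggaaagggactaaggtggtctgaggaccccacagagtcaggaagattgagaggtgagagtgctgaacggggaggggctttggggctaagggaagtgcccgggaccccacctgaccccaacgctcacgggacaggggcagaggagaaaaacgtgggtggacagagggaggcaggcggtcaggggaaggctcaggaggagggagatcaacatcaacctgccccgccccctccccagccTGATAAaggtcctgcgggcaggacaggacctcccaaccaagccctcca
AMN: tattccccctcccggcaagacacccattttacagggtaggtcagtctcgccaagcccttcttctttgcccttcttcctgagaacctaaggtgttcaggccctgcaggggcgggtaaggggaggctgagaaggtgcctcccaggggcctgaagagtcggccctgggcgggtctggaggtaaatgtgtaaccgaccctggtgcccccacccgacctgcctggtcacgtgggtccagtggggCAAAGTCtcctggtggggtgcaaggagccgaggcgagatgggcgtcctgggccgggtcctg
AFP: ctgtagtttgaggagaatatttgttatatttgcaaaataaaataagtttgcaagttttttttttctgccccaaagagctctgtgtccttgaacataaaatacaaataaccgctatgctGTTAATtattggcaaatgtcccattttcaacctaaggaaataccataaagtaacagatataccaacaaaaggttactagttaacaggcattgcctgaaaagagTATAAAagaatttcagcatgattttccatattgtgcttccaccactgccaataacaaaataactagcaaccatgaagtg

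The motifs were searched on both strands. The GATA motif (AGATAA or TGATAA) was found in windows of 3 of the 7 genes. It lay at position 38 of APOA2, position 3 of APOC1 and position 9 in a further APOE window (chr19:44906151-44906450). Positions were counted from 1 at the RefSeq start of each window, which can lie inside the span given below for the gene. By window, the GATA motif was found in 3 of the 11 and in 16.3% of 35116 windows over all genes. None of the 3 matches remained when the search was limited to bases before the start, where 14.6% of all windows held the motif. The FOXA motif (TGTTTNC) matched in APOA2, where it reads GTAAACA on the gene's strand 42 bases before the start, and in APOM. It was present in 2 of the 11 windows and in 18% of all windows. The HNF1 motif (GTTAAT) occurred in AFP alone among the 7 and in 6.88% of all windows, and the HNF4 core (CAAAGTC) in AMN alone and in 3.37% of all windows. The TATA box (TATAAA) was found in AFP and RBP4, in 4 of the 11 windows, and in 11.5% of all windows. These are letter matches in short windows and say nothing about binding.

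The comparison of KD with DE asked which of these genes differed when GATA6-AS1 was lowered. APOE and APOA2 were lower in KD, and no gene of the set was called higher. Of the 10 genes, 5 reached the filter of 1 TPM in at least 3 libraries and were tested, namely APOE, APOC1, AMN, APOA2 and APOM, and each of them reached 1 TPM in all 6. Of these, 2 passed, both lower, by limma on log2(TPM + 1) with adjustment over all 17711 genes tested and a threshold of 0.05. Over all genes tested 3.27% passed in either direction with 1.77% higher and 1.5% lower. With the replicate number as a block 4 passed, all lower, where 12.5% of all genes passed, 5.88% higher and 6.62% lower. With voom, a weighted fit of limma on estimated reads, 3 passed, all lower, where 12.6% of genes passed, 6.44% higher and 6.15% lower. The groups did not overlap for 3 of the 5, all with KD lower, where 20.8% of all genes tested did not overlap, 10.1% with KD higher and 10.7% with KD lower. The median log2 change over all genes tested was -0.01. In these bulk samples, fewer cells that make an RNA and less of that RNA per cell cannot be told apart.

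**Figure D2:**
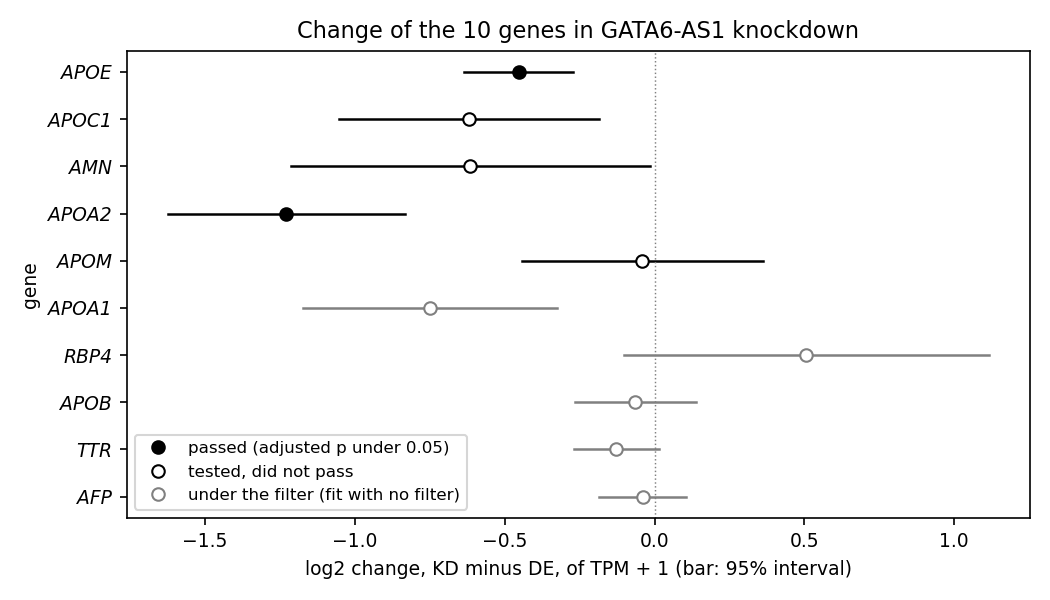
Log2 change of TPM + 1, KD minus DE, with its 95% interval for each of the 10 genes; filled points passed at an adjusted p under 0.05, open black points were tested and did not pass, and grey points were under the filter and come from a fit with no filter. APOA2 has the change farthest below 0 among the tested genes, at -1.23, and APOM lies at -0.04.

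APOE and APOC1 are neighbours on chromosome 19. APOE lies at chr19:44905754-44909393 and APOC1 at chr19:44914247-44919349, both on the plus strand (GENCODE 29, GRCh38). APOE stood at 491, 512 and 532 TPM in DE replicates 1 to 3 and at 376, 370 and 372 TPM in KD replicates 1 to 3. All KD libraries lay below all DE libraries, and the KD libraries lay close together. The means were 512 ± 20.6 and 373 ± 2.89 TPM (SD, n = 3 each), so that KD held 72.9% of the DE level. The log2 change was -0.45, and it passed (limma adjusted p = 0.0273, with the replicate block 0.00458). The call rested on an estimated 4646 to 7696 reads per library. Leaving out DE replicate 3 was the only removal of a single library that kept the call, while the log2 change stayed between -0.48 and -0.43 and the adjusted p reached 0.168.

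APOC1 stood at 53.4, 49.9 and 36.7 TPM in DE and at 31.7, 34.3 and 23.9 TPM in KD. The groups did not overlap, though the lowest DE library, replicate 3, was only just above the highest KD library. The log2 change was -0.62, larger in size than that of APOE, and it did not pass (limma adjusted p = 0.149). With the replicate number as a block the limma adjusted p was 0.00451. In GENCODE 29, 43.2% of the exon bases of APOC1 are shared with an unnamed gene on the same strand, so its counts could depend on how shared reads were assigned. The log2 ratio of APOC1 to APOE was -3.20, -3.36 and -3.86 in DE and -3.57, -3.43 and -3.96 in KD. The ranges overlapped, and the difference of -0.18 did not pass a 2-sided exact permutation test (p = 0.5, where 0.1 is the smallest p that 3 against 3 allow). The replicate block gave the smallest p it allows, 0.25. The third replicate had the lowest ratio in both groups.

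The chromosomal neighbours of APOE and APOC1 went both ways. Of 7 neighbours tested, 4 had a log2 change above 0, and 1 passed, which was higher in KD: BCAM, the Lutheran blood group adhesion molecule, rose from 22.2 ± 0.760 to 31.6 ± 1.24 TPM (limma adjusted p = 0.0393). That call was kept only without DE replicate 3 when single libraries were left out. With the replicate block 3 were higher and 1 lower. TOMM40, a subunit of the mitochondrial import pore whose gene sits beside APOE, had 80.3 and 100.1 TPM, a log2 change of 0.32 that did not pass (limma adjusted p = 0.238, with the block 0.0228). The nectin adhesion gene NECTIN2, listed under its older symbol PVRL2, was the most abundant neighbour with means of 249 and 206 TPM in DE and KD (log2 change -0.27, limma adjusted p = 0.272, with the block 0.0252). BCL3, a nuclear regulator of NF-kappa-B, had 7.11 and 10.2 TPM (log2 change 0.47, adjusted p = 0.168, with the block 0.0349).

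Among the HDL proteins, APOA2 fell and no difference was detected in APOM. APOA2 (chr1:161222292-161223631, minus strand) stood at 6.21, 5.93 and 4.26 TPM in DE and at 1.88, 1.62 and 1.70 TPM in KD. Every KD library was below every DE library, and KD held on average 31.7% of the DE level. The means were 5.47 ± 1.06 and 1.73 ± 0.129 TPM (SD, n = 3 each), with a log2 change of -1.23 (SE 0.169, 95% interval -1.63 to -0.83, limma adjusted p = 0.0140). Because of the added 1 TPM this log2 change understates that of the TPM themselves. The level rested on few reads, an estimated 42, 36 and 26 in DE and 10, 10 and 13 in KD. Removing DE replicate 1 or 2 left log2 changes of -1.14 and -1.17 with adjusted p of 0.0853 and 0.0604. Removing KD replicate 1 or 2 left -1.27 and -1.20 with adjusted p of 0.0536 and 0.0853, so these 4 fits lost the call.

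APOA1, the partner of APOA2 in HDL, lies at chr11:116835751-116837950 on the minus strand. It stood at 1.18, 1.09 and 0.870 TPM in DE and at 0.249, 0 and 0.434 TPM in KD, without overlap. It reached 1 TPM in 2 libraries and so had no main test. In the fit with no filter its log2 change was -0.75 and its adjusted p 0.166 (limma), where 0.646% of 36978 genes passed, 0.357% higher and 0.289% lower. The estimated reads were 12, 10 and 8 in DE and 2, 0 and 5 in KD, and 8.64% of its exon bases are shared with the antisense gene APOA1-AS. The log2 ratio of APOA1 to APOA2 was -2.40, -2.44 and -2.29 in DE, was -2.91 and -1.97 in KD replicates 1 and 3, and could not be formed in KD replicate 2, where APOA1 was at 0. The KD libraries thus lay on both sides of the DE range. With 1 TPM added to both genes the log2 ratio was 0.48 higher in KD (exact permutation p = 0.1, the smallest possible; adjusted over 3 ratios 0.3), a direction set by the added value, which is close to or above the levels themselves. No call could be made from it.

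APOM, a lipocalin that carries sphingosine-1-phosphate in HDL, lies at chr6:31652416-31658210 on the plus strand. It stood at 2.53, 2.06 and 1.77 TPM in DE and at 2.24, 2.13 and 1.71 TPM in KD. The groups overlapped, with the lowest KD library just below the lowest DE library, and the log2 change of -0.04 had a 95% interval of -0.44 to 0.36 (limma adjusted p = 0.974). The estimated reads ranged from 19 to 30 per library, and changes within that interval could not be told from 0 in these libraries. APOB (chr2:21001429-21044073, minus strand), the core of LDL, stood at 0.170, 0.189 and 0.0522 TPM in DE and at 0.0478, 0.155 and 0.0584 TPM in KD. The libraries overlapped, and its long transcript collected only 41 estimated reads in DE and 26 in KD.

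Of the plasma proteins typical of yolk sac and fetal liver, none reached the filter. RBP4 (chr10:93591687-93601744, minus strand) stood at 0.386, 0.323 and 0 TPM in DE and at 0.245, 0.848 and 1.28 TPM in KD. It alone among the 10 had the higher mean in KD, with overlapping groups, 7 estimated reads in DE and 25 in KD, and a log2 change of 0.51 that did not pass with no filter (limma adjusted p = 0.625). RBP4 lies inside the span of FFAR4, a fatty acid receptor gene on the opposite strand with which it shares no exon bases in GENCODE 29. FFAR4 averaged 0.196 ± 0.0398 TPM over DE and 1.18 ± 0.259 TPM over KD libraries (log2 change 0.86, limma adjusted p = 0.0669), and any part of its reads in the RBP4 values was not tested. Each DE library was below 1 TPM, so FFAR4 met the filter only through KD. TTR (chr18:31557010-31599021, plus strand) stood at 0.0643, 0.0717 and 0.142 TPM in DE and at 0 in each KD library. AFP (chr4:73431138-73456174, plus strand) stood at 0.0858, 0.0478 and 0 TPM in DE and at 0, 0.0471 and 0 TPM in KD. Both genes were below 3 reads in every library, which is the upper limit that a count of 0 allows and covers counting error only, so no fold is given for them.

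AMN lies at chr14:102922656-102933596 on the plus strand and is the membrane partner of cubilin. It stood at 6.68, 7.91 and 4.998 TPM in DE and at 4.58, 5.02 and 2.40 TPM in KD. The groups overlapped narrowly, since KD replicate 2 was just above DE replicate 3. The means were 6.53 ± 1.46 and 4.0 ± 1.41 TPM (SD, n = 3 each). The log2 change of -0.62 did not pass (limma adjusted p = 0.310), and it passed with the replicate block (adjusted p = 0.0245). Of its exon bases 16.4% are shared with CDC42BPB on the opposite strand, which had 88.7 and 79.8 TPM. CUBN, which encodes cubilin itself, stood at 1.86, 2.07 and 1.46 TPM in DE and at 0.862, 0.828 and 0.958 TPM in KD. Each KD library was below 1 TPM, so CUBN met the filter only through DE, and its lack of overlap followed from the filter. Its log2 change of -0.56 did not pass (limma adjusted p = 0.165, with the block 0.118).

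Libraries of the same replicate number moved together for some of these genes. Replicate 3 was the lowest of its group for APOC1, AMN and APOM in both DE and KD. For APOC1 it held 78.7% of the DE mean in DE and 51.3% in KD, and for AMN 76.5% and 36.7%. APOE did not follow this pattern, with 104.0% and 72.8% of its DE mean in the third replicates. These are the libraries with the larger mitochondrial share of TPM. When TPM were recomputed without mitochondrial genes, APOE stood at 687, 678 and 859 TPM in DE and at 524, 520 and 584 TPM in KD, with the third replicate the highest of both groups, where as deposited it was so in DE alone. Its groups still did not overlap. The log2 change of APOE was then -0.44 (limma adjusted p = 0.0476), and that of APOC1 passed (adjusted p = 0.0253). In these recomputed TPM the third replicate stayed the lowest of both groups for APOC1 and AMN. APOC1 stood at 74.7, 66.1 and 59.3 in DE and at 44.2, 48.2 and 37.5 in KD. AMN stood at 9.34, 10.5 and 8.07 in DE and at 6.39, 7.06 and 3.76 in KD. For APOM it was the lowest in KD but not in DE (3.53, 2.74 and 2.86). The part of the mitochondrial share in this pattern was not tested.

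**Figure D3:**
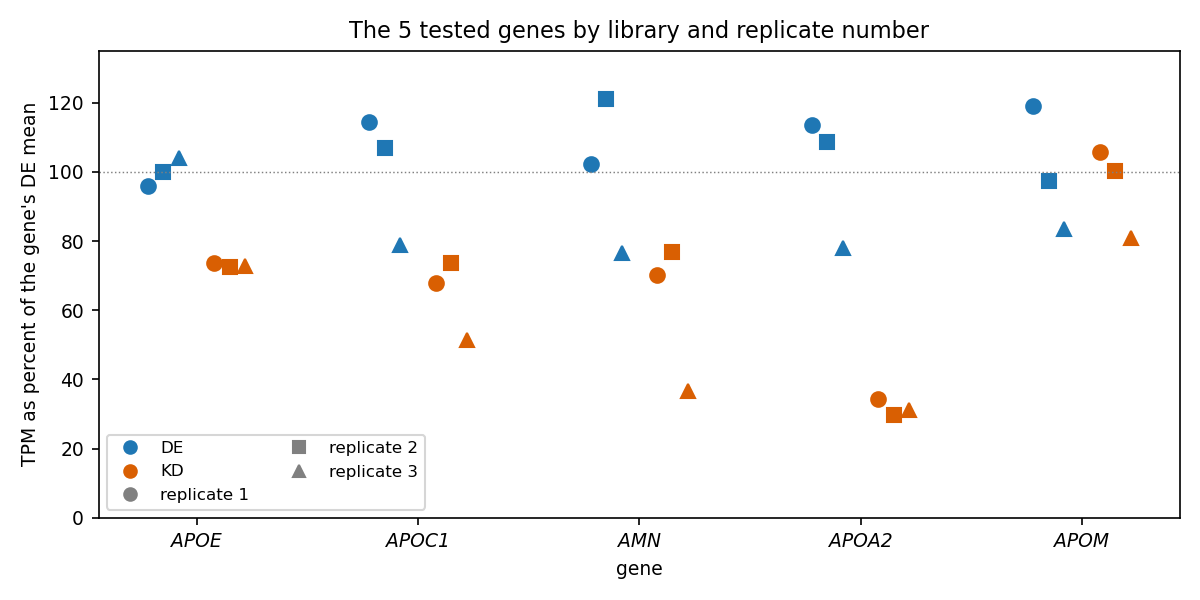
TPM of the 5 tested genes in each library as a percent of the gene's DE mean (linear axis); colours are groups and marker shapes are replicate numbers. Triangles, the third replicates, are lowest within both groups for APOC1, AMN and APOM, while the KD libraries of APOE lie between 72.4% and 73.5%.

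The rest of the apolipoprotein family held genes that moved the other way. Of 19 other apolipoprotein genes, 5 were tested, 2 rose and none fell (2 and 1 with the replicate block), with a median log2 change of 0.03. CLU, which encodes clusterin, a chaperone-like apolipoprotein, stood at 10.8, 10.4 and 10.4 TPM in DE and at 37.3, 41.0 and 32.6 TPM in KD. The groups lay far apart, with a log2 change of 1.71 (limma adjusted p = 0.00219) whose call was kept whichever single library was left out. APOL2, an intracellular member of the family, rose from 4.28 ± 0.703 to 8.003 ± 1.05 TPM (SD, n = 3 each; adjusted p = 0.0480), and that call was lost whichever single library was left out. APOL3, of the same subfamily, had 4.42 and 2.47 TPM, a log2 change of -0.65 that did not pass (adjusted p = 0.113, with the block 0.0256). APOO, a mitochondrial inner membrane protein, was the most abundant at 28.5 and 28.2 TPM. APOE made up 85.5%, 86.4% and 89.5% of the TPM of 22 apolipoprotein genes in DE and 81.6%, 80.1% and 84.2% in KD, without overlap. That count leaves out APOO, APOOL and APOBR, which are a pair of mitochondrial proteins and a receptor. With them, over 25 genes, the share was 80.2% to 84.7% in DE and 73.9% to 78.1% in KD. Without CLU, over 21 genes, it was 87.1% to 91.1% in DE and 87.9% to 90.9% in KD, and the groups overlapped.

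Genes for building and exporting lipoproteins were not called. Of 14 assembly and secretion genes tested, 0 passed by limma, and the median log2 change was -0.05. With the replicate block 1 was lower, with voom on estimated reads 1 passed, and 1 had an unadjusted p under 0.05. The share of all genes at that unadjusted cut is not given, here or for later lists. DGAT2, which makes triglyceride, had 2.15 and 0.884 TPM (log2 change -0.74, adjusted p = 0.0610, with the block 0.0458). Each KD library was below 1 TPM, so DGAT2 met the filter only through DE. SOAT1, which esterifies cholesterol, had 11.5 and 8.71 TPM (adjusted p = 0.553), and the folding enzyme PDIA3 had 462 and 500 TPM (adjusted p = 0.715). The chaperone HSPA5 was the most abundant, at 640 and 642 TPM.

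Receptors that take up lipoproteins showed no call either. Of 15 tested, 0 passed by limma, and the median log2 change was 0.10. With the replicate block 3 were higher, and with voom 5 passed, 3 higher and 2 lower. At an unadjusted p under 0.05 there were 5, in both directions, with CUBN, described above, among the lower. LRP8, the APOE receptor of the reelin pathway, stood at 27.4, 27.2 and 23.7 TPM in DE and at 37.8, 36.7 and 35.7 TPM in KD. Its groups did not overlap, and its log2 change of 0.48 lay just outside the threshold (limma adjusted p = 0.0522, with the block 0.00862). SORL1, a sorting receptor that binds APOE, had 14.9 ± 2.64 and 24.4 ± 2.77 TPM (log2 change 0.68, adjusted p = 0.0678, with the block 0.00421).

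Of 10 genes of HDL remodelling and cholesterol efflux, 0 passed by limma (1 lower with the block, 2 at an unadjusted p under 0.05 and 1 with voom), with a median log2 change of -0.01. ABCA1, the transporter that loads cholesterol onto APOA1, had 8.26 ± 1.32 and 5.86 ± 0.448 TPM (log2 change -0.43, adjusted p = 0.205, with the block 0.0401). NR1H3, a nuclear receptor for oxysterols, had 10.02 and 7.99 TPM (adjusted p = 0.294), and LCAT, which esterifies cholesterol on HDL, 5.06 and 5.92 TPM (adjusted p = 0.560). PLTP, the phospholipid transfer protein, was the most abundant at 113 and 119 TPM. Among 7 genes of the retinol and thyroxine carriers' partners, 1 rose and none fell, with a median of -0.01. It was LRAT, which esterifies retinol for storage, at 2.62, 2.55 and 1.45 TPM in DE and at 8.80, 9.73 and 6.38 TPM in KD. Its log2 change was 1.54 (limma adjusted p = 0.0151), and the call was lost without replicate 1 of either group or replicate 2 of KD, with an adjusted p of up to 0.0874. STRA6, the receptor for RBP4, had 5.32 and 6.27 TPM (adjusted p = 0.609), and CRABP2, which carries retinoic acid, 460 and 436 TPM (adjusted p = 0.799).

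Among other secreted plasma proteins most were nearly silent, and C3 and F10 were lower in KD. Of 31 listed, 27 stayed below 1 TPM in every library, and ALB, albumin, reached at most 0.166 TPM. Of the 4 tested, 2 fell and none rose (3 fell and none rose with the block), with a median log2 change of -0.52. Complement C3 stood at 35.5, 35.7 and 32.8 TPM in DE and at 21.1, 21.5 and 21.1 TPM in KD (log2 change -0.68, limma adjusted p = 0.0137), and coagulation factor F10 at 8.19, 6.68 and 6.77 TPM in DE and at 3.31, 2.80 and 3.10 TPM in KD (log2 change -1.01, adjusted p = 0.0138). Neither pair of groups overlapped. The call of C3 was lost without replicate 1 or 2 of either group, and that of F10 without replicate 1 of either group or replicate 2 of KD. FN1, fibronectin, was the most abundant at 221 ± 14.8 and 172 ± 8.02 TPM (adjusted p = 0.0925, with the block 0.0115). The fourth, the trypsin inhibitor gene SPINK1, had 1.77 and 1.75 TPM in overlapping groups (adjusted p = 0.987).

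Transcription factors of liver and endoderm, several of which are known to bind apolipoprotein genes, were lower where they passed. Of 18 tested, 3 fell and none rose (6 fell and none rose with the block), with a median log2 change of -0.28. Those given here are the pioneer factor FOXA2 and the zinc-finger factor GATA4, with log2 changes of -0.74 and -0.87. Both passed (limma adjusted p = 0.0125 and 0.0138). GATA6 was the most abundant and did not pass (log2 change -0.66, adjusted p = 0.0648, with the block 0.00500). HNF4A, the nuclear receptor best known for driving apolipoprotein genes, was added to those named after its values were seen. It stood at 3.36, 2.34 and 2.01 TPM in DE and at 0.970, 1.24 and 1.32 TPM in KD, without overlap, and did not pass (log2 change -0.70, adjusted p = 0.123, with the block 0.0832). The calls of FOXA2 and GATA4 were lost without DE replicate 1 or KD replicate 2.

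**Figure D4:**
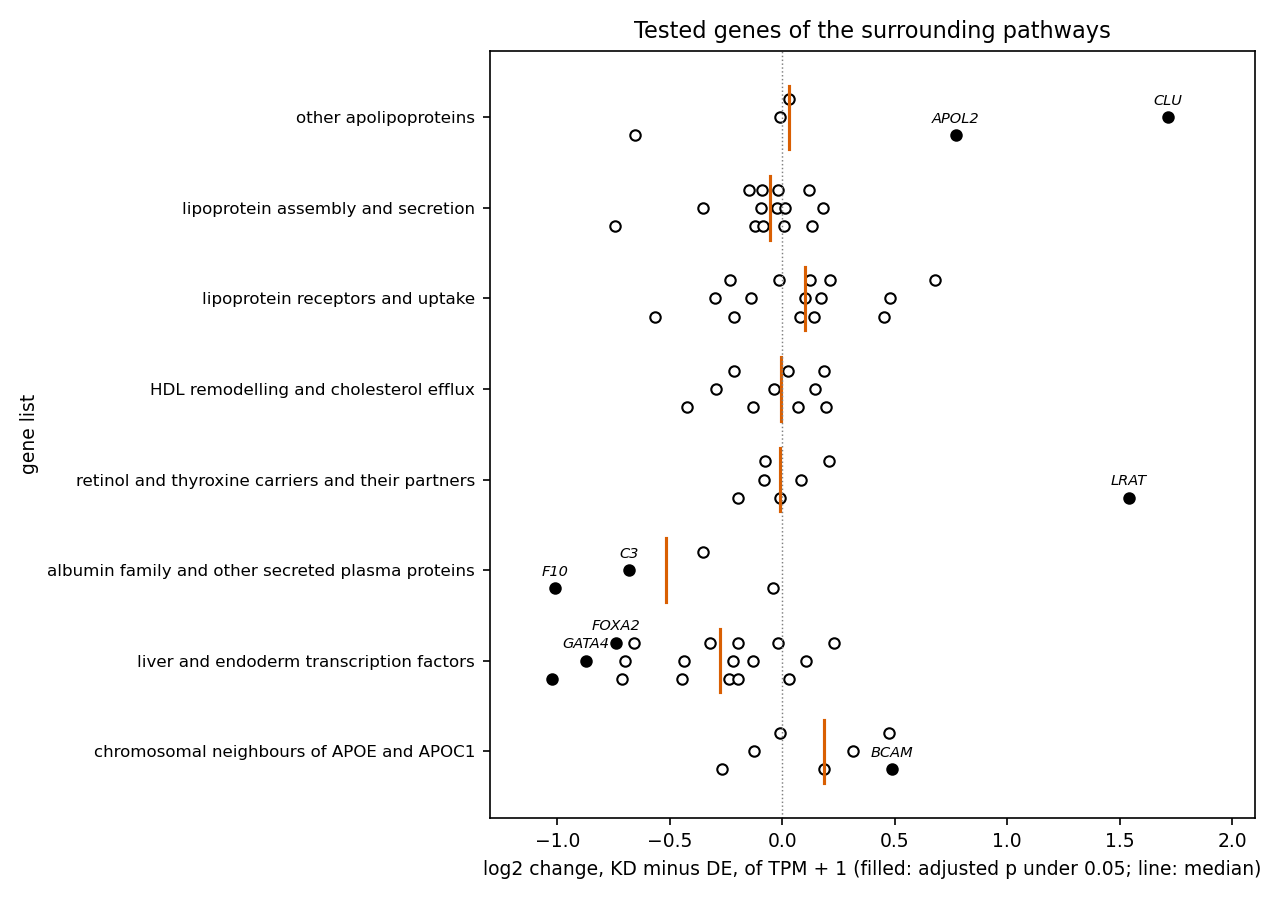
Log2 change of TPM + 1, KD minus DE, of the tested genes in 8 related lists; each point is a gene, filled points passed at an adjusted p under 0.05, and vertical lines are list medians. CLU, APOL2, LRAT and BCAM are the filled points above 0, and C3, F10, GATA4 and FOXA2 are among those below it.

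Among markers of cells that the culture could hold, the pluripotent ones that passed were higher in KD and the endoderm ones lower. Mesoderm, trophoblast and amnion markers went both ways, and no macrophage marker passed. The part of such cells in the lower values of APOE and APOA2 was not tested. Of 10 pluripotent stem cell markers 7 rose and none fell, with POU5F1 going from 682 to 1247 TPM and the mean of NANOG from 36.6 to 70.5 TPM. When replicate 1 of either group or replicate 2 of KD was left out, 1 of them rose, and 3 rose without DE replicate 2. Of 15 definitive endoderm markers 6 fell and none rose (12 fell with the replicate block), and SOX17 averaged 551 and 265 TPM (limma adjusted p = 0.0530, with the block 0.00757). Of 15 tested markers of primitive, visceral and parietal endoderm other than the 10 genes, 3 fell and none rose (5 fell with the block). In both endoderm lists none passed by limma when DE replicate 1 or KD replicate 2 was left out. Definitive endoderm held 3 calls without DE replicate 2 or KD replicate 3, and the other list held 1 without DE replicate 2 or KD replicate 1. The summed level over the 20 listed in the last of these lists was 1263 to 1466 TPM in DE and 1084 to 1169 TPM in KD, and SPARC, a matrix protein with a wide range of sources, alone had means of 744 and 652 TPM. Of 15 hepatoblast and hepatocyte markers 12 stayed below 1 TPM in every library, and the sum over the 15 was 12.5 to 16.1 TPM in DE and 9.70 to 11.9 TPM in KD. Of the 3 tested, 1 fell and none rose, both with and without the replicate block. That call was lost without replicate 1 or 2 of DE or replicate 2 of KD. Of 10 macrophage markers, 8 stayed below 1 TPM in every library. The sum over the 10 was 2.62 to 4.74 TPM in DE and 2.13 to 4.86 TPM in KD. Of 6 mesoderm markers tested 3 rose and 1 fell, and the sum over 11 listed was 158 to 200 TPM in DE against 221 to 238 in KD. Of 6 trophoblast and amnion markers tested 2 rose and 2 fell (2 rose and 3 fell with the block). The sum over 10 listed was 70.3 to 75.9 TPM in DE against 55.8 to 59.5 in KD. Without DE replicate 1 a single mesoderm marker passed, which rose, and no trophoblast and amnion marker passed. When single KD libraries were left out, 1 or 2 mesoderm markers passed, and no trophoblast and amnion marker rose.

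**Figure D5:**
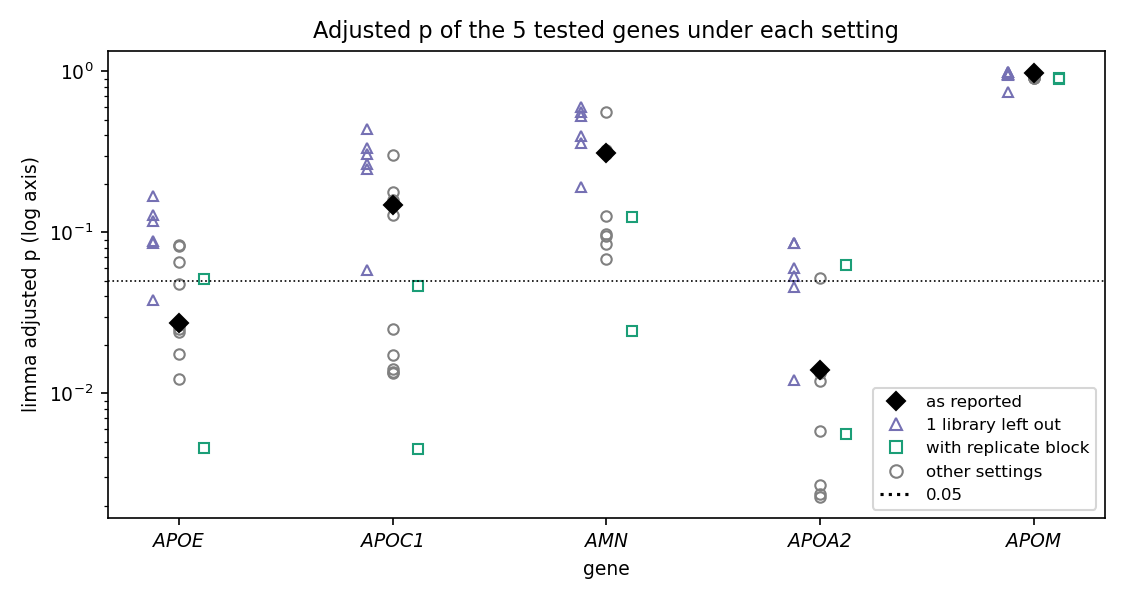
Limma adjusted p (log axis) of the 5 tested genes as reported and under each other setting; the dotted line marks 0.05. APOM lies at the top under all of them, APOC1 lies under the line in both fits with the replicate block and AMN in 1 of them, and triangles of APOE and APOA2, fits with a library left out, lie on both sides of the line.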

How the data were processed

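Total RNA of 6 HuES8 endoderm samples, 3 DE and 3 KD as their titles say, was sequenced. The authors deposited TPM per gene, each column summing to 1000000, per the file headers and values. Tools in the submitters' processing notes are featureCounts, DESeq2 and HISAT2 2.1.0, with GRCh38 as build. Their steps, the annotation and the strand setting were not given in the sources used here. A large share of one RNA class lowers the TPM of all other genes.

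Genes with at least 1 TPM in 3 of 6 libraries were tested on log2(TPM + 1) with limma 3.58.1 (R 4.3.3, eBayes with trend, 2-sided, Benjamini-Hochberg, 0.05). Python 3.11.15 (scipy 1.17.1) gave exact permutation tests. The fit was tested on simulated data. Depth was estimated from whole-read steps of TPM times GENCODE 29 exon length: 88.6% to 89.5% of low values lay within 0.02 of whole reads. These reads describe depth and feed voom, an alternative added after seeing the data, as was the block with no filter. Overlaps and coordinates are from GENCODE 29 and 1-based. Promoters are described in the report. In 28 rows the symbol had become a date.

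The 10 genes and the lists were chosen with earlier results of these data known. Named were all 10 genes, GATA6-AS1, GATA6, SOX17, FOXA2, POU5F1, NANOG and, per pathway list, the 3 genes with the smallest p and the most abundant gene (for other marker lists the most abundant); HNF4A, ALB, SPINK1 and the overlapping gene CDC42BPB fall outside this rule. Some genes that the rule names have no values given here.

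After removal of group means, same-numbered libraries correlated at 0.108, 0.144 and 0.347, each above the limit of 0.1. A fit with the replicate number as a block was therefore added beside the main fit, which has the group alone and no pairing. The pairing rests on the data and not on a label, and DE replicate 2 with KD replicate 1 reached 0.121. Blocked values stand beside results they change. Alternatives were pseudocounts of 0.1 and 0.5, dropping the filter or asking for a mean of 5 TPM, scaling by quantiles or median ratios, TPM without mitochondrial genes, limma without trend or robust, a threshold of 0.01, the replicate block, and leaving out each library or the third replicates.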

Additional observations from a re-analysis of the deposited data

How the results depend on the processing

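The number of the 10 genes that passed was 2 (APOA2 and APOE). It was 4 with the replicate block, where APOC1 and AMN joined them. APOC1 alone joined them, giving 3, with quantile normalization, without mitochondrial genes, without the third replicates and with voom. With median-ratio scaling the 2 that passed were APOA2 and APOC1. With a mean of at least 5 TPM only 3 of the 10 genes were tested, APOA2 not among them, and 1 passed (APOE). The number was 1 without the trend (APOA2) and 1 with the block and no filter together (APOC1, added after seeing the data). Over all genes, 489 passed with a mean of at least 5 TPM, 586 without the trend and 411 with the block and no filter. With no filter, and at a threshold of 0.01, 0 passed by limma, while 4 had an unadjusted p under 0.05 in each. Leaving out 1 library gave 0 to 2, with 3 or 4 at an unadjusted p under 0.05. The number that passed was 0 without replicate 1 or 2 of either group. The share of all genes at that unadjusted cut is not given here, so these counts cannot be set against it. The count over all genes, 579, was 239 with no filter, 1735 with quantile normalization, 1743 with median-ratio scaling, 1700 without mitochondrial genes, 2215 with the replicate block, 1212 without the third replicates, 106 at a threshold of 0.01 and 1848 with voom, and 87 to 610 without 1 library. APOE was at an adjusted p of 0.0839 with no filter, 0.0817 with median-ratio scaling and 0.0652 without the trend. The log2 change of APOM ran from -0.122 to 0.0511 without 1 library, turning positive without DE replicate 1 (0.0511) and KD replicate 3 (0.0364), and no other tested gene of the 10 changed sign. The block left the difference of the APOC1 to APOE ratio at -0.18, and without 1 library it was -0.373 to -0.0282. The GATA motif was found in 0 promoters before the start. The cause of these shifts was not tested. Few reads limit APOA1, APOB, RBP4, TTR and AFP.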

Other observations

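Chromosomal neighbours were also counted for APOA1, APOA2, APOM, TTR and RBP4. Of 8 tested neighbours of APOA1, 11 of APOA2, 8 of APOM, 5 of TTR and 7 of RBP4, 0 passed by limma. With the replicate block 0 passed near APOA1 and APOM, 1 near APOA2 (higher), 2 near TTR (1 higher and 1 lower) and 4 near RBP4 (all lower). At an unadjusted p under 0.05 these lists held 0, 1, 0, 2 and 5 genes, and with voom 0, 0, 0, 1 and 5. The list around RBP4 had a median log2 change of -0.39. It held CYP26A1, which degrades retinoic acid and was the most abundant gene of that list, with 779, 775 and 524 TPM in DE and with 555, 489 and 378 TPM in KD. Its groups overlapped, and its log2 change of -0.54 did not pass (limma adjusted p = 0.245, with the block 0.00411). HHEX, a homeobox factor of anterior endoderm in the same list, had 104 ± 16.6 and 63.1 ± 12.1 TPM (SD, n = 3 each; log2 change -0.71, limma adjusted p = 0.0760, with the block 0.0161). RBP4 itself had the opposite sign.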
